A study of Rattus norvegicus with 7 samples.

Results

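The V1R models described here lie on chromosome 1 between 49414474 and 59831046 (RGSC3.4), in the vomeronasal epithelium of rats. They are the 51 models of the authors' block of 224 V1R models whose lowest start falls between 49000000 and 60000000 on that chromosome, of 29630 models in all. Within the block position alone set membership, but the region was chosen with earlier results of these data known. The block places 29 of them among intact models and 22 among pseudogenes, copies that have lost an intact coding sequence. All samples formed 1 group: 7 male LEW/Crl rats (an inbred Lewis strain) aged 8 weeks, untreated as far as the labels say, flushed of blood with heparin, with 1 library per rat. The libraries held 64085829 to 74924005 counts.

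Type 1 vomeronasal receptors (V1Rs) are seven-transmembrane G protein-coupled receptors of the vomeronasal organ, a chemosensory structure of the nasal cavity that detects social and other chemical cues. They are expressed by sensory neurons of its apical layer, which signal through the G protein subunit Gnai2 and the channel Trpc2, and a neuron is thought to express a single V1R gene. The coding sequence of a V1R gene is a single exon, and the genes stand in tandem clusters that also hold many pseudogenes. In RNA of the whole tissue, fewer neurons that express a receptor and less RNA per neuron cannot be told apart. The deposited files do not pair identifiers with symbols for the marker genes of these neurons, so that the tissue label was not checked against them.

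The 51 models fell into 3 groups wherever a gap of over 500 kb between neighbours was taken as a border. The first, at 49414474–49564635, held 1 intact model between 2 pseudogenes. After 7.02 Mb without a V1R model came the main stretch, at 56587323–58889552, with 26 intact models and 19 pseudogenes over 2302.2 kb. A last group at 59753623–59831046 held 2 intact models and 1 pseudogene, 0.864 Mb farther on. With a border at gaps over 1 Mb, the main stretch and the last group formed 1 group. Within the groups, successive intact models were 29.4 to 213 kb apart, with a median of 76.1 kb. Of the intact models 15 stood on the plus strand and 14 on the minus strand. All 29 had 1 exon and a length divisible by 3, from 870 to 1068 bases, which is coding length. The pseudogenes had 265 to 1007 bases in 1 exon (16 models) or 2 exons (6 models), and 9 of 22 had a length divisible by 3. No model of either kind overlapped another model of the annotation on either strand. The same span held 82 models that are not V1R, of which 35 reached the detection threshold used below.

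Nearly all intact receptors of the region passed the detection threshold, and their levels ranged widely. Detection required 10 or more counts in no fewer than 4 rats, which 56.3% of all models met. Of the intact members 26 of 29 were detected, and of the pseudogenes 5 of 22. With 3 counts in 4 rats these were 27 and 7, against 61.9% of all models. Where 1 count in 4 rats sufficed they were 28 and 9, and the share of all models at that threshold was not computed. Of the 26, 10 held whole counts in every rat. The rest held fractions of reads shared with other places in at least 1 rat. In ENSRNOG00000039030, ENSRNOG00000032234 and ENSRNOG00000039019 the fraction stood in rat 7, 4 and 3 alone, in that order. How far the detection of each copy rests on shared reads was not tested. The other intact V1R models of the genome were detected in 76 of 80 cases and the other V1R pseudogenes in 11 of 93. The share of detected intact members lay above, and that of detected pseudogenes below, the share over all models, without a test. Levels are given as RPKM, counts divided by the model's length and the library's total, as mean ± SD over the 7 rats. Leaving the 10 most abundant models out of the total raised every level named below, and the median of the members from 3.29 to 6.02 RPKM. With the full total, the median intact member had 3.29 RPKM, the quartiles were 0.756 and 8.33, and the other intact V1R models had a median of 3.07 RPKM. All models that passed the detection threshold, V1R or not, had a median of 6.29 RPKM. Of the intact members 6 lay above 10 RPKM, 4 between 5 and 10, 11 between 1 and 5, and 5 detected ones below 1.

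**Figure D1:**
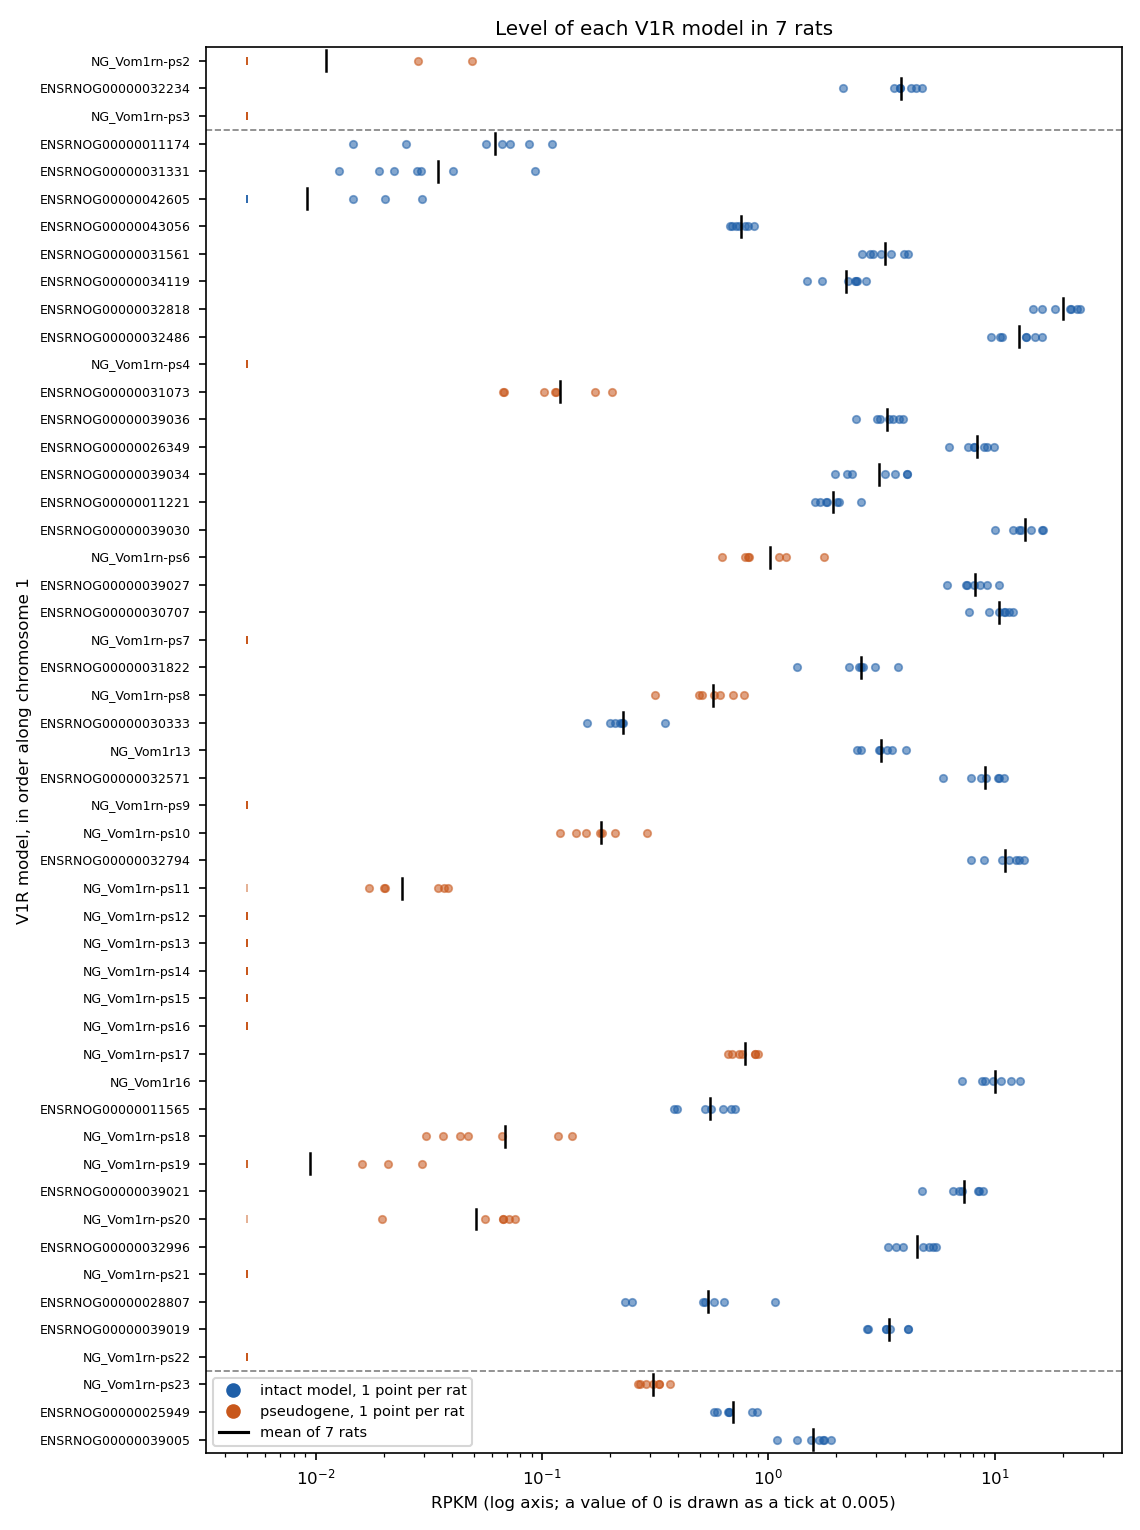
Level of each of the 51 V1R models (vertical axis, in order along chromosome 1, dashed lines between the 3 groups) in RPKM on a log axis, with 1 point per rat, intact models in blue, pseudogenes in orange and the mean of 7 rats as a black bar. Intact models reach 20.0 RPKM, pseudogenes at most 1.02, and 11 pseudogenes have 0 counts in every rat.

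The region as a whole took a steady part of the V1R signal. Its intact models held 0.0136% ± 0.00229 of all counts (SD, n = 7), from 0.00985% in rat 6 to 0.0165% in rat 7, with a median rat at 0.0139%. Rat 6 was lowest. With models of whole counts alone the share was 0.00216%, and with the 10 most abundant models of the libraries left out of the total it was 0.0249%. Of the counts of all intact V1R models, however, they held 25.7% in the lowest rat, 26.2% in the median rat and 26.8% in the highest, so that the 7 rats lay within about a percentage point (26.2% ± 0.435, SD). They are 26.6% of the intact V1R models. Among models with whole counts alone the members held 15.9%. For comparison, the 22 intact models of the chromosome 1 cluster at 71 to 74 Mb held 27.5% ± 0.296, the 17 at 62 to 69 Mb 14.9% ± 0.347, the 23 below 100 Mb on chromosome 4 15.4% ± 0.269 and the 15 above it 14.5% ± 0.506 (SD, n = 7 rats each). Median levels of the intact models in these 5 regions lay between 2.85 and 3.4 RPKM. No test was made between regions.

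Reads shared between copies bear on many of the levels. Reads with several alignments were split evenly among them, so that a model with whole counts in all rats held few or no shared reads. Only 10 of the 26 detected intact members had whole counts throughout, 38.5%, against 69.2% of all detected models. A further 5 had counts in steps of 0.5, that is, reads shared between 2 places, and 11 had finer fractions. The members with finer fractions ran from 57539962 to 59831046 and were absent from the first part of the main stretch. Median levels were 2.39 RPKM for models with whole counts, 12.8 for those with steps of 0.5 and 8.22 for those with finer fractions. None of the 10 highest intact members had whole counts in every rat. A single fractional count takes a model out of that class, so models with many counts leave it more easily. ENSRNOG00000039030, the second highest, had a fraction in rat 7 alone (962.5 counts). The medians of the classes are therefore not a clean contrast. How far shared reads set these levels was not tested, and the levels of all 10 are uncertain to an unknown degree.

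The 10 highest intact members, ranked by mean RPKM, held 75.6% ± 0.825 of the counts of the region's intact models (SD, n = 7). Highest was ENSRNOG00000032818 (57224972–57225868, plus strand), with 14.7 RPKM in the lowest rat, 21.5 in the median rat and 23.9 in the highest, a mean of 20.0 ± 3.54. It alone took 13.2% ± 0.487 of the intact counts of the region, and it ranked 3 among all 109 intact V1R models. Next along the chromosome and on the same strand, 62.8 kb away, ENSRNOG00000032486 (57288667–57289563) ranked 3 in the region with 9.65 RPKM in the lowest, 13.7 in the median and 16.2 in the highest rat (mean 12.8 ± 2.47). Both are 897 bases long, and although their ranges over rats overlap, ENSRNOG00000032486 was lower in 7 of 7 rats, by a log2 difference of -0.64 ± 0.07 (adjusted exact permutation p = 0.0174). The second highest, ENSRNOG00000039030 (57764189–57765100, plus), had 10, 13.1 and 16.3 RPKM in the lowest, median and highest rat. In each of these 3 models rat 6 was the lowest and rat 7 the highest, and together they held 30.7% ± 0.675 of the intact counts of the region.

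The other highly expressed members lay along the main stretch, most of them distal to these 3. ENSRNOG00000032794 (58357037–58357957, minus) reached 7.87 RPKM in the lowest rat, 11.6 in the median and 13.5 in the highest. ENSRNOG00000030707 (57931141–57932076, minus) had 7.73, 11.0 and 12 RPKM, and ENSRNOG00000032571 (58171230–58172165, minus), also of 936 bases, had 5.89, 9.19 and 11.0. These ranges overlap widely. ENSRNOG00000039027 (57899438–57900337, plus) had 6.16, 8.10 and 10.4 RPKM in the lowest, median and highest rat. ENSRNOG00000039021 (58721851–58722798, plus) had 4.77, 7.16 and 8.88. Earlier in the stretch, ENSRNOG00000026349 (57539962–57540993, minus) had 6.28, 8.12 and 9.93. Rat 6 was the lowest rat for every one of these 6 models.

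The authors named 2 of the intact members, NG_Vom1r13 and NG_Vom1r16, and these are the only ones that could be matched by symbol to a gene with a sequence in RefSeq. The windows of 250 bases before to 50 bases after the annotated start of Vom1r13 (chr1:68937097-68937396, plus) and Vom1r16 (chr1:69335666-69335965, minus) in RefSeq's build GRCr8 are shown because they precede a moderately and a highly expressed neighbour of the same cluster. Capitals mark the bases from the annotated start on.
Vom1r13: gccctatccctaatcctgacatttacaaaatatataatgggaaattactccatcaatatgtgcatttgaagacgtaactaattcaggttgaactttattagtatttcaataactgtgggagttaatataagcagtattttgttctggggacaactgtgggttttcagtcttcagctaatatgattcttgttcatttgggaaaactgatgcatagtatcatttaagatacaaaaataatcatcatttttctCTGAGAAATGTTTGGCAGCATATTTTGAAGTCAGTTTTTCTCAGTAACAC
Vom1r16: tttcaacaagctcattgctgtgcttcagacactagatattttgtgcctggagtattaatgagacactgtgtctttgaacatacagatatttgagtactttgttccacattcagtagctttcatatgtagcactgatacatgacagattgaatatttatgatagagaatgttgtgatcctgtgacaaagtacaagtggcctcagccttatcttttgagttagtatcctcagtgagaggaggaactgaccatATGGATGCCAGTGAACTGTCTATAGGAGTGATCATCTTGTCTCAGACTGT
For Vom1r16 the annotated start is the ATG start codon and the gene has the same 948 bases as the deposited model. For Vom1r13 the annotated start is CTG, not ATG, and the annotated gene has 951 bases and the model 900. The 2 windows are thus not set at like points. The windows come from the reference strain, not from the Lewis rats, and where transcription starts was not measured. The homeodomain core TAATTA and the TATA box TATAAA, which do not contain each other, were searched on both strands, and the letters of neither occur in either window. TAATTA occurs in 5.36% and TATAAA in 14.2% of all 33469 windows of that length. Of the 96 windows of V1R genes, 14 hold TAATTA and 46 hold TATAAA. In 54 of the 96 the annotated start is ATG, so windows of V1R genes and of all genes may not be set at like points. No test was made between them. NG_Vom1r16 (58571141–58572088, minus, RGSC3.4) had 7.20 RPKM in the lowest, 9.86 in the median and 12.9 in the highest rat, sixth in the region. NG_Vom1r13 (58140900–58141799, plus) had 2.47, 3.13 and 4.04 RPKM, so that the highest rat of Vom1r13 lay below the lowest of Vom1r16. Both held finer fractions of shared reads.

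At the proximal end of the main stretch stood 3 intact models that were not detected. ENSRNOG00000011174 (56587323–56588390, minus), the first, had 1 count in the lowest rat, 5 in the median and 8 in the highest, 32 over all rats, all of them whole. ENSRNOG00000031331 (56622816–56623871, plus) had 1 to 6.5 counts per rat, 17.5 in all. ENSRNOG00000042605 (56730912–56731967, plus) had 0 counts in 4 rats and at most 2 in the others, 4.5 in all. Their levels were 0.0620 ± 0.0338, 0.0349 ± 0.0270 and 0.00919 ± 0.0123 RPKM (the last 0.0058 without rat 1). That all lay below every detected intact member nearly follows from the count threshold, since the intact members are of like length. The 3 undetected models are also the longest intact members, at 1056 to 1068 bases, the longest detected one having 1032. The next model, ENSRNOG00000043056 (56838504–56839475, plus), was detected at 0.675 RPKM in the lowest rat, 0.745 in the median and 0.865 in the highest, from 43 to 63 whole counts.

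The ends of the 3 groups held low to moderate levels. The intact model of the first group, ENSRNOG00000032234 (49437215–49438111, minus), had 2.14 RPKM in rat 6, the lowest, a median of 3.81 and 4.76 in the highest rat. Rat 6 stood well below the next lowest, rat 5, at 3.58. The last intact model of the main stretch, ENSRNOG00000039019 (58877734–58878603, plus), had 2.72, 3.31 and 4.15 RPKM in the lowest, median and highest rat. In the last group, ENSRNOG00000025949 (59777206–59778219, minus) had 0.574, 0.670 and 0.893 RPKM. Its neighbour ENSRNOG00000039005 (59830099–59831046, minus) had 1.09, 1.68 and 1.90, above it in every rat.

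Neighbouring intact receptors differed in level from one to the next, with no steady rise or fall along the region. Each pair of successive detected intact models, including the 2 pairs that span the gaps between groups, was compared within rats, as the difference in log2(RPKM + 0.1), on which the difference comes out too small where levels are low. All 25 pairs of the region passed an exact sign-flip permutation test over the 7 rats (two-sided, adjusted over all 99 pairs of the V1R block by Benjamini-Hochberg), as did 91.9% of the 99 pairs, so that the members' share is near the background. The second model of a pair, in the order of coordinates, was higher in 11 pairs and lower in 14. The size of the difference had a median of 1.91 on the log2 scale, against 1.35 for the 74 other pairs of the block, and was at least 1 in 17 of 25 pairs (68.0%) and in 42 of 74 (56.8%), with no test between these. Pairs less than 100 kb apart (14) had a median of 1.75 and those farther apart (11) one of 1.91. Medians were 1.30 for the 13 pairs on the same strand and 1.94 for the others. With 7 rats the test cannot give a p below 0.0156, so that it ranks no pair above another. Only 4 of the 25 pairs joined models that both had whole counts, and all 4 differed.

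**Figure D2:**
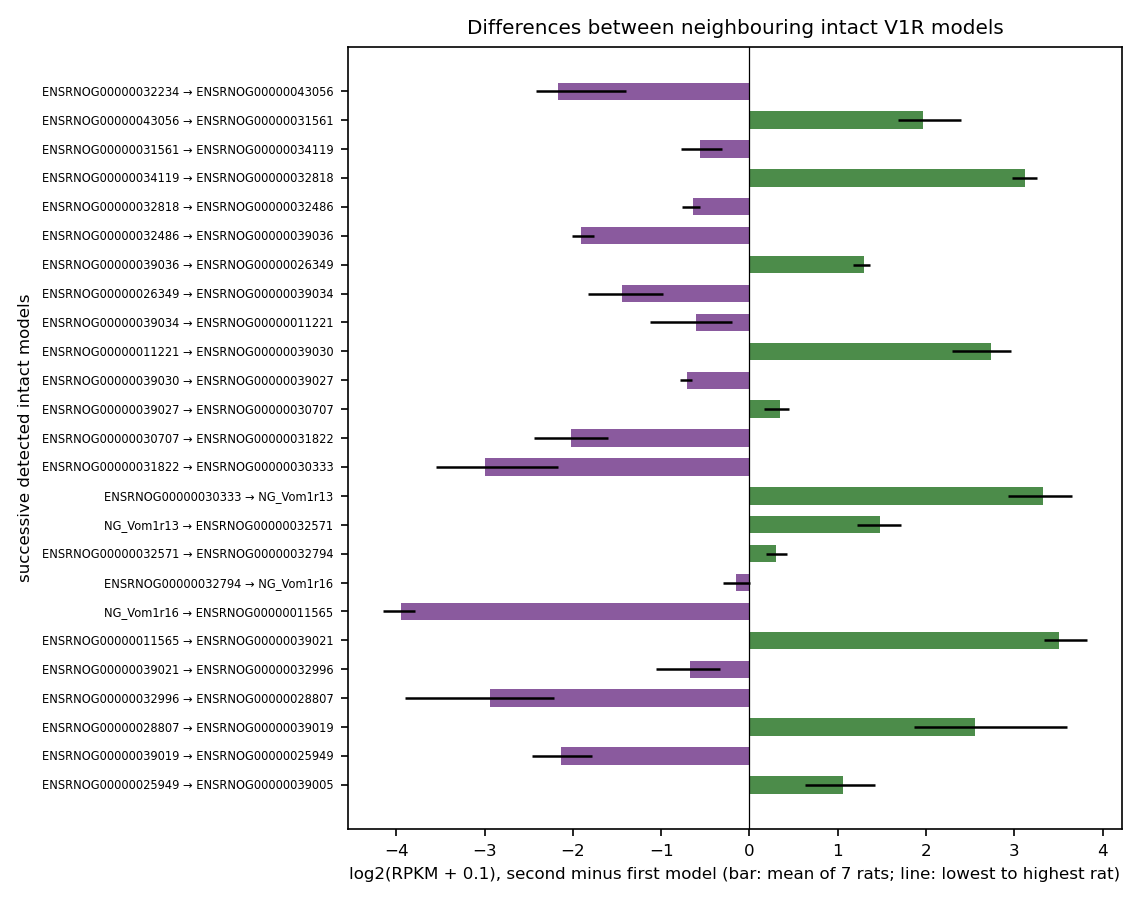
Difference in log2(RPKM + 0.1), second minus first model, for the 25 pairs of successive detected intact models, in order along chromosome 1, with bars for the mean of 7 rats and lines from the lowest to the highest rat. Green bars (second model higher) and purple bars (second model lower) alternate irregularly, and 1 line, for NG_Vom1r16 against ENSRNOG00000032794, reaches 0.

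The 5 largest steps involved ENSRNOG00000011565 and ENSRNOG00000030333, both below 1 RPKM, and the rise to the highest member. From NG_Vom1r16 to ENSRNOG00000011565 (58681805–58682710, plus), 110 kb away, the level fell by 3.95 ± 0.13 on the log2 scale (SD, n = 7, 7 of 7 rats, exact permutation p = 0.0156, adjusted 0.0174). ENSRNOG00000011565 had 0.382, 0.557 and 0.715 RPKM in the lowest, median and highest rat. From there to ENSRNOG00000039021, 39.1 kb on and on the same strand, the level rose by 3.50 ± 0.17 (adjusted exact permutation p = 0.0174). ENSRNOG00000030333 (58063494–58064414, minus) was the lowest detected intact member, at 0.158, 0.221 and 0.350 RPKM. It lay 3.0 ± 0.47 below the model before it, ENSRNOG00000031822 (57986844–57987764, minus), and NG_Vom1r13 after it lay 3.32 ± 0.30 above it (adjusted exact permutation p = 0.0174 each). With a pseudocount of 1 RPKM these differences were -1.52 and 1.75, in the order named. ENSRNOG00000031822 itself had 1.34, 2.58 and 3.75 RPKM. The remaining large step, 3.12 ± 0.11, led from ENSRNOG00000034119 (57123858–57124766, plus), at 1.48, 2.41 and 2.7 RPKM, up to ENSRNOG00000032818. Every rat showed the direction of each of these 5 steps.

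The smallest steps joined 3 pairs of strongly expressed models. ENSRNOG00000032794 and NG_Vom1r16, 213 kb apart on the same strand, differed by -0.15 ± 0.12, in that direction in 6 of 7 rats (exact permutation p = 0.0312, adjusted 0.0340). This call ended on CPM, undivided by length (-0.11, adjusted exact permutation p = 0.0665). It also ended with rat 2, 3, 4, 5, 6 or 7 left out in turn (-0.13 to -0.16, adjusted exact permutation p = 0.0665 to 0.068). Between ENSRNOG00000032571 and ENSRNOG00000032794 the difference was 0.30 ± 0.09, and between ENSRNOG00000039027 and ENSRNOG00000030707 it was 0.35 ± 0.10, each in 7 of 7 rats (adjusted exact permutation p = 0.0174 each). All 5 models of these 3 pairs held finer fractions of shared reads.

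Most pseudogenes of the region had few or no counts. They held 0.000283% ± 5.44e-05 of all counts (SD, n = 7), and 2.05% ± 0.248 of the counts of the region. Among models with whole counts alone, pseudogenes held 8.76% ± 1.14 of the counts of the region. The share of all counts was 0.000519% with the 10 most abundant models left out of the total. Of the 22, 11 had 0 counts in every rat, which allows up to 3 counts over the group (0.00622 CPM, counting error only), and 6 had counts but were not detected. The longest run of models at 0 was NG_Vom1rn-ps12 to NG_Vom1rn-ps16 (58423584–58521528), 5 successive pseudogenes on both strands without a count. It stood between the strongly expressed ENSRNOG00000032794 and NG_Vom1r16, with NG_Vom1rn-ps11 and NG_Vom1rn-ps17 at its edges. Of the 17 undetected pseudogenes 5 were shorter than 645 bases, the length of the shortest detected one, and 12 were not. The distance to the nearest intact model was 8.63 to 83.0 kb for detected pseudogenes (median 33.9) and had a median of 24.6 kb for undetected ones.

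Among the detected pseudogenes, 3 of 5 held no fractional count. NG_Vom1rn-ps6 (57835586–57836452, minus) had 0.622 RPKM in the lowest rat, 0.818 in the median and 1.77 in the highest, from 38 to 115 counts. NG_Vom1rn-ps17 (58561404–58562508, minus, 2 exons) had 0.666, 0.766 and 0.899 RPKM, and NG_Vom1rn-ps23 (59753623–59754267, minus) had 0.266, 0.310 and 0.368, from 11 to 16 counts. With fractions of shared reads, NG_Vom1rn-ps8 (58028626–58029554, plus) had 0.317, 0.576 and 0.783 RPKM. NG_Vom1rn-ps10 (58255193–58256137, plus) had 0.120, 0.180 and 0.290, from 7.5 to 20.5 counts, and thus passed the detection threshold narrowly. Just below it stood ENSRNOG00000031073 (57409532–57410446, plus), a pseudogene with 4 to 14 whole counts per rat, 54 in all, and 0.120 ± 0.0510 RPKM. The counts of NG_Vom1rn-ps2 (49414474–49415412), 2 in rat 2 and 3 in rat 7, equalled in every rat those of a model on another chromosome that is not V1R, at numbers too low to show shared reads. The highest pseudogene, NG_Vom1rn-ps6, had a mean of 1.02 RPKM, and 0.894 without rat 2. Of the 5 detected intact members below 1 RPKM, ENSRNOG00000043056 had the highest mean, 0.756. In rat 5 NG_Vom1rn-ps6 lay below that model (0.622 against 0.789 RPKM).

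Each detected pseudogene was set against the intact V1R model nearest to it, in the same test within rats. All 5 differed from it, as did 93.8% of the 16 detected pseudogenes of the block, and 4 of the 5 were lower. NG_Vom1rn-ps17 stood 8.63 kb from NG_Vom1r16 on the same strand, beyond its 3' end, and lay 3.50 ± 0.27 below it on the log2 scale (SD, n = 7). NG_Vom1rn-ps23 likewise stood beyond the 3' end of ENSRNOG00000025949 on its strand, 22.9 kb away, and lay 0.96 ± 0.24 below it. NG_Vom1rn-ps6 and NG_Vom1rn-ps10, on the strand opposite to their nearest intact models ENSRNOG00000039027 and ENSRNOG00000032571, had differences of -2.94 ± 0.38 and -5.01 ± 0.25. NG_Vom1rn-ps8 was the exception. It exceeded ENSRNOG00000030333, 33.9 kb away on the opposite strand, by 1.02 ± 0.31. With a pseudocount of 1 RPKM the differences were 0.35 for NG_Vom1rn-ps8, -0.38 for NG_Vom1rn-ps23 and -3.06 for NG_Vom1rn-ps10. In 1 of the 5 comparisons, that of NG_Vom1rn-ps23, both models had whole counts. For each of the 5 the direction held in 7 of 7 rats (exact permutation p = 0.0156, adjusted over the 16 pseudogenes 0.0179).

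Rats differed in the level of most intact members together. Of the 26 detected intact members, 21 had their lowest CPM in rat 6, against 23.1% of all detected models. Of the 76 other detected intact V1R models, 53 did (69.7%). This pattern was chosen after the values were seen. The CPM in rat 6 was 0.701 times the median of the other 6 rats at the median member, and 0.424 to 1.01 times over the 26. The 5 exceptions, named after their values were seen, were ENSRNOG00000043056 (0.990 times the median of the other rats), ENSRNOG00000025949 (1.01), ENSRNOG00000030333 (1.01), ENSRNOG00000011221 (0.891) and ENSRNOG00000032996 (0.735). All but ENSRNOG00000030333 were among the 10 detected intact members with whole counts. The other 16 of the 26 held fractions of shared reads, and models that share reads with each other are not separate observations. Of the detected pseudogenes, NG_Vom1rn-ps8 and NG_Vom1rn-ps10 were lowest in rat 6, at 0.534 and 0.659 times the median of the others, whereas NG_Vom1rn-ps23 stood at 1.10 times, NG_Vom1rn-ps6 at 0.847 and NG_Vom1rn-ps17 at 0.841.

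**Figure D3:**
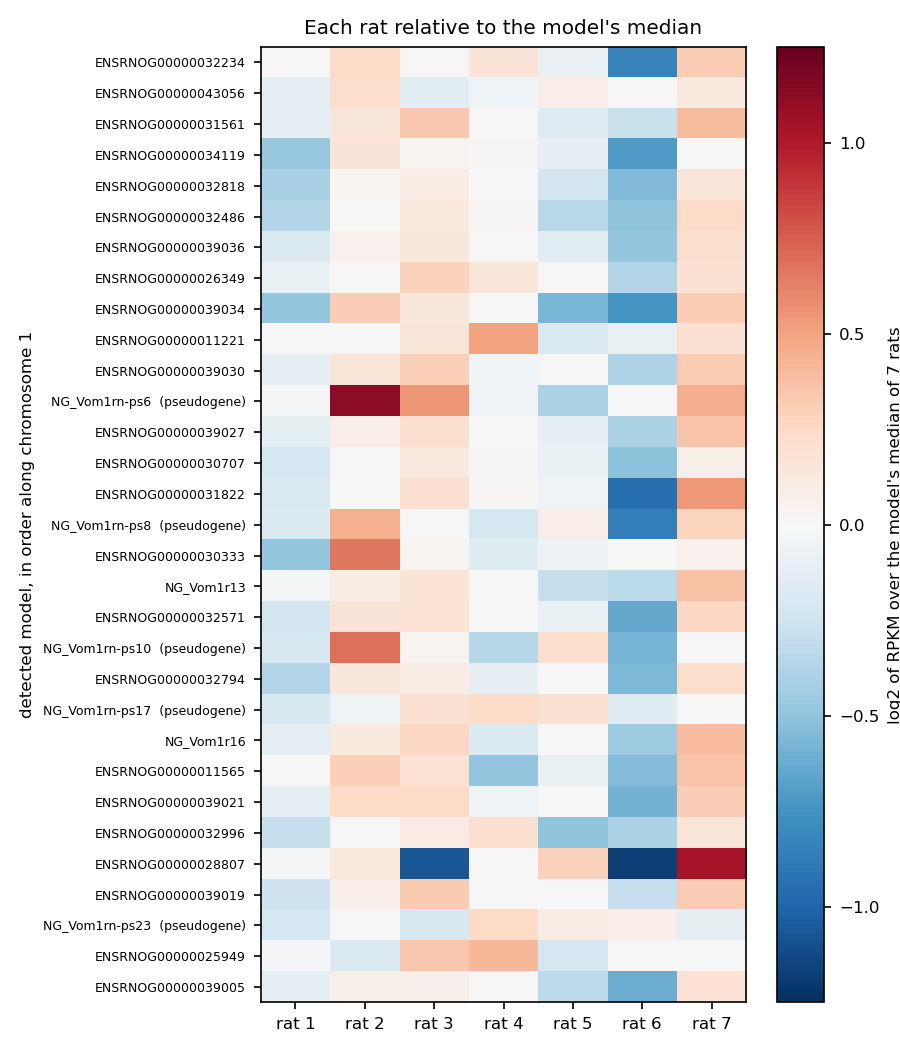
Level of each detected model (rows, 26 intact and 5 pseudogenes, in order along chromosome 1) in each rat (columns), as log2 of its RPKM over the model's median of the 7 rats. The column of rat 6 is blue in nearly all rows of intact models, with 21 of 26 lowest there, and the row of ENSRNOG00000028807 varies most.

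Set against the rest of the V1R signal, most members varied less between rats. The coefficient of variation (CV) of CPM over the rats had a median of 18.3% in the 26 detected intact members (9.09% to 51.6%). When each model's counts were divided by the rat's other intact V1R counts, the median CV was 7.74% (3.17% to 41.0%), and it was smaller in 23 of 26. The same count was not taken for intact V1R models outside the region, so it is not shown to be particular to these members. The 16 members with fractions of shared reads had a median of 7.17% on this scale and the 10 with whole counts one of 15.2%. On CPM their medians were 18.2% and 18.6%. The 10 with whole counts ran from 3.35% (ENSRNOG00000039036) to 41.0% on the relative scale. They also had the lower levels, with a median of 2.39 RPKM, and counting error weighs more at low counts. Whether level or read sharing goes with the difference was not tested. Without rat 6 the median over all 26 members was 14.6% on CPM and 8.25% relative to the other intact V1R counts. The steadiest share was that of ENSRNOG00000032818, at 3.17%. The 3 members whose CV did not become smaller were ENSRNOG00000043056 (9.09% before and 17.7% after), ENSRNOG00000025949 (17.4% and 20.7%) and ENSRNOG00000011221 (16.4% and 16.8%), named after their values were seen. All 3 had whole counts. The most variable member was ENSRNOG00000028807 (58822073–58822981, plus), with 0.232 RPKM in rat 6, 0.250 in rat 3, 0.515 to 0.640 in 4 rats and 1.07 in rat 7, from 14 to 63 whole counts. Its CV stayed at 41.0% relative to the other intact V1R counts.

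**Figure D4:**
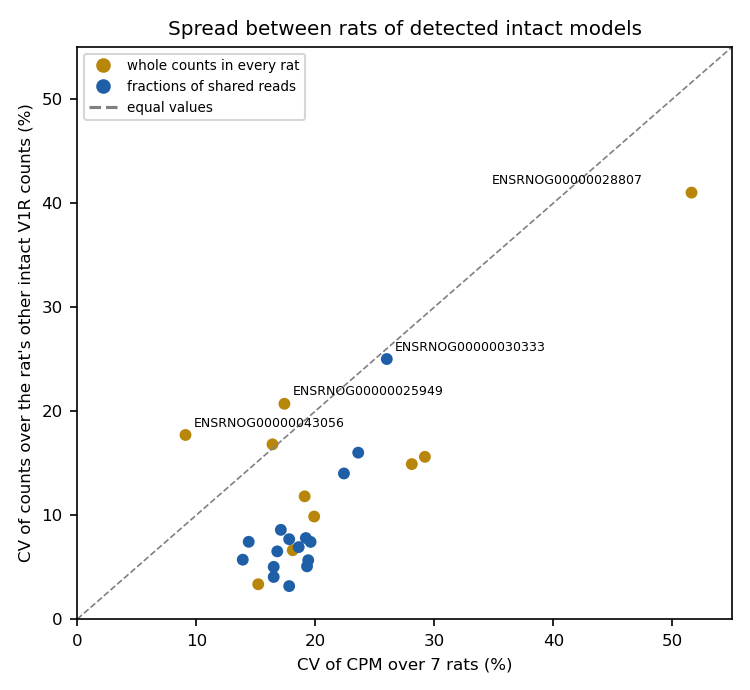
CV over 7 rats of each detected intact model (1 point each), on CPM (horizontal axis, %) and after division by the rat's other intact V1R counts (vertical axis, %), with models of whole counts in ochre and those with fractions of shared reads in blue. Of the 26 points 23 lie below the dashed line of equal values.

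The biological coefficient of variation, the square root of edgeR's tagwise dispersion, had a median of 15.7% in the detected intact members (12.4% to 40.3%) and of 20.6% in the 5 detected pseudogenes. All detected models had a median of 10.5%, with quartiles at 7.89% and 15.7%, and all 26 intact members lay above that median, without a test. The other intact V1R models had a median of 16.7%.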

How the data were processed

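RNA-seq libraries of vomeronasal epithelium from 7 rats were analysed, 1 per rat and all in 1 group. Single-end stranded reads of 100 bases came from polyA-selected RNA, per the labels' protocols. The authors deposited estimated counts per gene model: STAR 2.7.1a and featureCounts 1.6.5 are named in the submitters' processing notes, featureCounts 1.6.3 per the file headers. Reads were counted on exons with strand setting 2, and a multimapping read as a fraction at each place, per the file headers. Gene models came from Ensembl release 67 (RGSC3.4), with an addition marked in the name of the annotation, per the file headers. The classes of models with an Ensembl identifier only follow from their place in the authors' block. The gene table (47357 genes, 0 with an Ensembl identifier) gave no other names.

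CPM and RPKM used each rat's total count and the deposited model length. Pairs were compared within rats on log2(RPKM + 0.1) by two-sided exact sign-flip permutation tests, called at an adjusted p of 0.05 (Python 3.11.15, numpy 2.4.6, pandas 2.3.3). Dispersions came from edgeR 4.0.16 (R 4.3.3, intercept only, TMM, rounded counts, 16670 detected models). DESeq2 1.42.0 gave alternative size factors. Named are the 10 highest intact members, undetected intact ones, detected pseudogenes, models named by the authors, models of equal counts, the ends of each group, and the 5 largest and 3 smallest steps between neighbours. The members, lists and tests were chosen with earlier results of these data known. No library repeated another: chi-square per degree of freedom was 11.4 to 106 over the 21 pairs. Whether each rat's library was made separately is not stated beyond 1 rat per library, and p-values cover the spread between these 7 libraries.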

Additional observations from a re-analysis of the deposited data

Results flagged for a closer look

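Of 37 values tested for a rat that stands far from the other 6, 2 had one, where chance gives about 1 in 20. ENSRNOG00000031331, an undetected intact model, had 0.0929 RPKM in rat 6 against at most 0.0403 in the others, and its gap to the nearest rat was 0.655 of the whole range (critical value 0.568). This is 6.5 counts against 1 to 3. ENSRNOG00000030333, the lowest detected intact member, had 0.350 RPKM in rat 2 against 0.158 to 0.229 in the others, with a gap of 0.631 of the range and 24.17 counts against 9.33 to 15.58.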

How the results depend on the processing

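All values kept their direction in every alternative run. The alternatives for single members and pairs, and the counts of models lowest in rat 6, were chosen after seeing the data. With models of whole counts only, 10 intact members and 3 pseudogenes were detected, 4 neighbouring pairs and 1 pseudogene passed the test, and the intact share of all counts was 0.00216%, the pseudogene share 0.000206%, the share of intact V1R counts 15.9% and the median level 2.21 RPKM; this filter leaves out 16 of the 26 detected intact members. Without the 10 most abundant models in the total, which is smaller by construction, these shares were 0.0249% and 0.000519% and the median 6.02 RPKM. With pseudogenes taken by name only, the share of intact V1R counts was 25.7%. At least 1 count in 4 rats counted 28 intact members and 9 pseudogenes as detected, with no share over all models computed. The variability of intact members was 7.74% relative to other V1R counts; the cause was not tested. With each rat left out, the ranges were 0.0131% to 0.0142% (intact share), 0.000267% to 0.000293% (pseudogene share), 26.1% to 26.3% (share of intact V1R counts), 3.15 to 3.41 RPKM (median), 13.4% to 16.7% (variability), 24 to 25 pairs, 4 to 5 detected pseudogenes, and 26 intact members and 5 pseudogene differences throughout. The count of 21 intact members lowest in rat 6 was the same under TMM, DESeq2 size factors and the smaller total, where 20.0%, 20.9% and 20.2% of all detected models were lowest in that rat. Of 130 alternative values of single differences, 123 stayed on their side of the threshold and 7, all of NG_Vom1r16 against ENSRNOG00000032794, did not. No contrast between groups of rats was possible because all rats form 1 group. Differences between models were paired, being taken within rats. Counts per rat limit the lowest members: under 10 counts, a level rests on a few reads.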
